A study of Mus musculus with 12 samples.

Results

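The genes described here carry vitamin A (retinol) or make and break its active product, retinoic acid. They are 9 genes chosen by symbol, Rbp4, Crabp2, Rdh10, Rdh16, Dhrs3, Aldh1a1, Aldh1a2, Aldh1a3 and Cyp26b1, and all 9 have a row among the 23955 gene symbols of the count table. Their RNA was counted in a commercial stock of bone marrow mesenchymal stem cells from female C57BL/6 mice, stromal cells able to become fat cells, used at passage 9 to 10. The TBT group received 50 nM tributyltin, an organotin that binds the retinoid X receptors (RXR) and PPARγ. The ROSI group received 500 nM rosiglitazone, a ligand of PPARγ, and the DMSO group received the vehicle at 0.1%. Every group also carried the same adipogenic mix of insulin at 5 ug/mL, dexamethasone at 1 uM and isobutylmethylxanthine at 0.5 mM, and had 4 libraries taken after 14 days. All libraries come from this 1 commercial source. Whether those of a group are separate cultures is not stated, so the p-values reflect library-to-library spread that could be technical.

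Retinol travels in blood bound to RBP4 and, inside cells, is oxidised to retinal by retinol dehydrogenases such as RDH10, while DHRS3 reduces retinal back to retinol. The ALDH1A enzymes then oxidise retinal to retinoic acid, a step that is not reversed, and CYP26 enzymes hydroxylate retinoic acid for disposal. CRABP2 hands retinoic acid to its nuclear receptors (RAR), which bind DNA together with RXR. RXR is also the partner of PPARγ, and fat tissue is both a store of retinyl esters and a source of circulating RBP4.

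The libraries held 4639929 to 5988715 counts in TBT, 4027152 to 7474654 counts in ROSI and 4074568 to 7111542 counts in DMSO. Levels are given in CPM, the usual per-million unit of counts, with library sizes scaled by TMM factors, and a gene counts as changed where the adjusted p of the edgeR quasi-likelihood test, fitted to 12323 genes, is under 0.05. The TBT libraries were not alike in GC. Each gene's log2 level was centred on its own mean over all libraries. The median of the most GC-poor genes was then subtracted from that of the most GC-rich genes. This difference, relative to the other libraries, was -0.55, -0.44 and -0.26 in TBT replicates 1, 2 and 3 and 0.11 in TBT replicate 4. It was -0.026 to 0.42 in ROSI and 0.051 to 0.27 in DMSO. The share of Rn45s, the ribosomal RNA precursor, was 0.40% to 0.67% for TBT replicates 1 to 3 and 6.85% for TBT replicate 4, against 1.36% to 9.27% in ROSI and 2.64% to 6.18% in DMSO. In both measures TBT replicates 1 to 3 lay apart from all other libraries. DMSO replicate 3 had a summed level of 821 CPM over 12 adipocyte markers, against 332 to 461 CPM in the other DMSO libraries. Results that turn on any of these libraries are given with and without them.

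With TBT, 3 of the 8 members tested rose against DMSO (Rbp4, Dhrs3 and Cyp26b1) and 0 fell, where 15.2% of all tested genes passed, 8.22% higher and 7.03% lower. With DMSO replicate 3 and TBT replicate 4 both left out, 5 members rose, Rdh16 (1.12 on the log2 scale) and Aldh1a1 (0.64) being the additional ones. That fit called 3741 genes in all, 1781 of them higher, against 1879 and 1013 with all libraries. The TBT libraries kept in it are those that lay apart in GC and Rn45s. With ROSI, Rbp4, Rdh16, Dhrs3 and Cyp26b1 rose against DMSO and Aldh1a1 fell, where 22.6% of all tested genes passed, 10.0% higher and 12.6% lower. Set directly against ROSI, TBT libraries had more Rbp4, Aldh1a1 and Cyp26b1 and less Rdh16, where 23.9% of all tested genes passed, 12.8% higher and 11.1% lower. The share of all tested genes whose libraries did not overlap was 15.7% in TBT against DMSO (7.42% higher, 8.26% lower), 28.3% in ROSI against DMSO (13.0% higher, 15.4% lower) and 20.7% in TBT against ROSI (10.9% higher, 9.89% lower). The comparisons with DMSO share its libraries, and those between TBT and either other group share the TBT libraries. The members were picked with differences between these groups already known, so their folds and adjusted p-values are a description of size and spread and are no independent evidence. The median log2 fold change of the 8 tested members was 0.31 in TBT against DMSO, 0.17 in ROSI against DMSO and 0.35 in TBT against ROSI, and that of all tested genes was -0.011, 0.0088 and 0.017. Aldh1a2 was too low to test. Rbp4 was kept by the filter on low counts through its TBT and ROSI libraries.

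**Figure D1:**
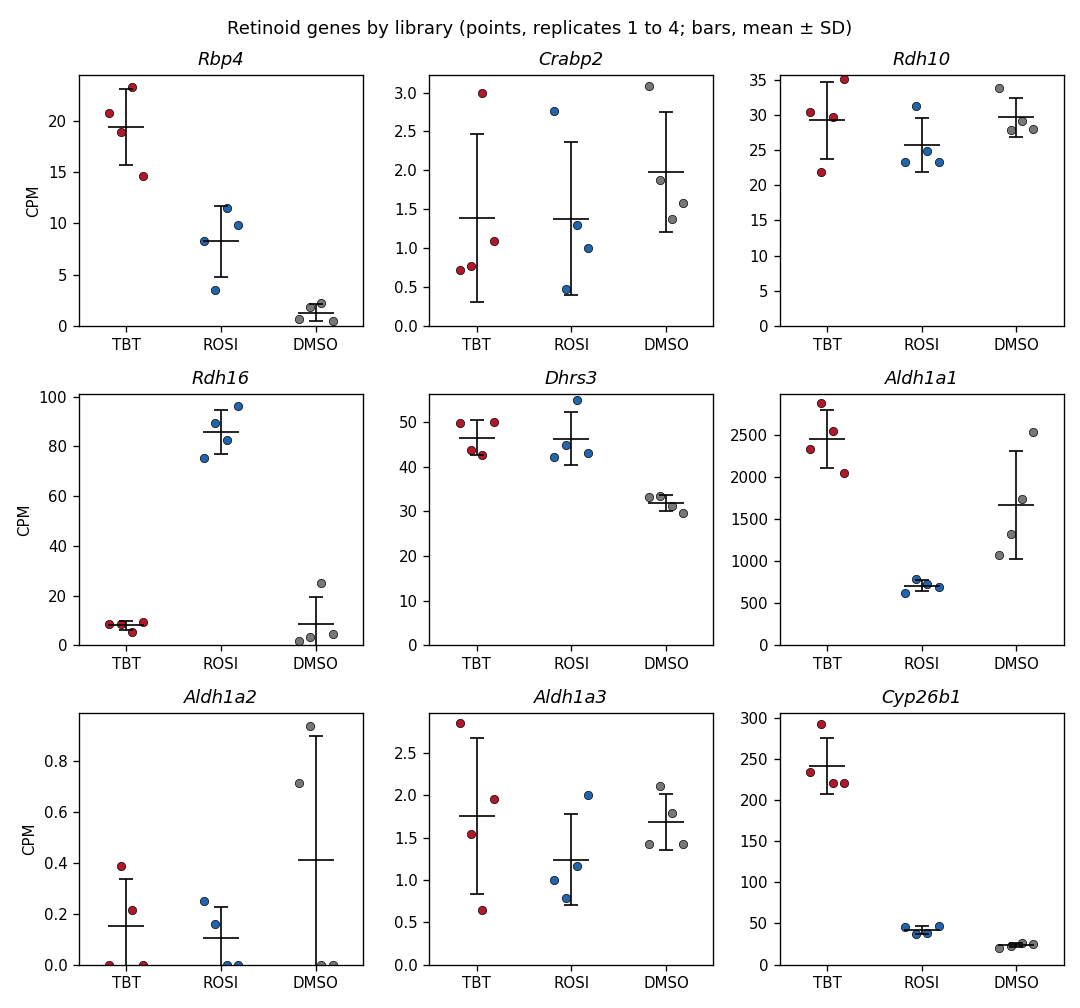
Level of each of the 9 genes in CPM (vertical axis, from 0) in the 4 TBT, 4 ROSI and 4 DMSO libraries; points are libraries and bars the mean ± SD, cut at 0 where the SD is larger than the mean. Cyp26b1 lies at 221 to 292 CPM in TBT, above all ROSI and DMSO libraries, while Rdh16 lies at 75.2 to 96.1 CPM in ROSI and at or under 24.9 CPM elsewhere.

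Among the carriers, Rbp4 differed between all 3 groups. Rbp4 encodes the retinol carrier of blood plasma, which fat cells also secrete. It stood at 20.7, 18.9, 23.3 and 14.6 CPM in TBT libraries, at 8.27, 3.48, 11.5 and 9.83 CPM in ROSI libraries and at 0.713, 1.87, 2.21 and 0.474 CPM in DMSO libraries. The 3 groups did not overlap, with every TBT library above every ROSI library and every ROSI library above every DMSO library. The log2 fold change was 3.82 ± 0.40 (SE; edgeR adjusted p = 2.4e-05) in TBT against DMSO, 2.60 ± 0.42 (adjusted p = 2.1e-04) in ROSI against DMSO and 1.22 ± 0.31 (adjusted p = 0.010) in TBT against ROSI. Only 30 reads over the 4 DMSO libraries stand behind the low end, against 390 reads in TBT and 193 in ROSI, so the folds against DMSO are wide: the 95% interval of the log2 fold change in TBT against DMSO runs from 2.98 to 4.67.

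RefSeq (GRCm38.p6) places a promoter of Rbp4 on the minus strand of chromosome 19. The stretch from 143 to 18 bases before the annotated start (chr19:38124829-38124954) is shown because Rbp4 was higher with both ligands. It overlaps no annotated exon of Rbp4, and exons of genes other than the members were not looked at. Capitals mark a TATAAA box, which 7.59% of all promoter windows of 250 bases hold on the gene's strand.
Rbp4: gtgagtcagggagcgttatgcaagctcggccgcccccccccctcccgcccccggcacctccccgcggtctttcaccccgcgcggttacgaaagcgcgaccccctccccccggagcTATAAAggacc
No half-site for nuclear receptors (the motif AGGTCA, the variant written AGTTCA, the variant written GGGTCA and the variant written GGTTCA, on either strand) was found in this window of 250 bases. A second Rbp4 window, at another annotated start, held 1 such match, and 38.6% of all windows held at least 1.

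Crabp2, which delivers retinoic acid to its nuclear receptors, was near the limit of detection. It had 0.715, 0.772, 2.99 and 1.09 CPM in TBT libraries, 2.76, 0.474, 1.29 and 1.00 CPM in ROSI libraries and 3.09, 1.87, 1.38 and 1.58 CPM in DMSO libraries. The groups overlapped, and sums of 27, 29 and 41 reads in TBT, ROSI and DMSO leave wide errors. The log2 fold change was -0.48 in TBT against DMSO (95% interval -1.61 to 0.64) and -0.55 in ROSI against DMSO (-1.67 to 0.56), and neither passed the threshold.

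At the step between retinol and retinal the 3 genes behaved in 3 ways. Rdh10, the main retinol dehydrogenase of embryonic tissues, was at 30.4, 21.8, 29.7 and 35.0 CPM in TBT libraries, at 23.3, 31.3, 24.8 and 23.3 CPM in ROSI libraries and at 33.7, 27.8, 29.1 and 28.0 CPM in DMSO libraries. The groups overlapped in all 3 comparisons. None of the 3 differences passed, at -0.021 in TBT against DMSO (95% interval -0.36 to 0.32), -0.20 in ROSI against DMSO (-0.54 to 0.13) and 0.18 in TBT against ROSI (-0.16 to 0.52).

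Dhrs3 reduces retinal to retinol and is itself induced by retinoic acid in many cell types. Its level was 49.7, 43.6, 42.6 and 50.0 CPM in TBT libraries, 42.1, 44.9, 55.0 and 43.1 CPM in ROSI libraries and 33.3, 33.5, 31.1 and 29.6 CPM in DMSO libraries. All TBT and all ROSI libraries lay above all DMSO libraries. Dhrs3 rose by 0.55 ± 0.13 on the log2 scale in TBT (edgeR adjusted p = 0.011) and by the same 0.55 ± 0.13 in ROSI (adjusted p = 0.0050), a rise of 1.46-fold. Between TBT and ROSI the difference was 0.0023 (95% interval -0.27 to 0.27), the smallest among the members tested. The reads carry no strand, and in RefSeq Dhrs3 overlaps Vps13d, which had 139 ± 7.65 CPM in TBT, 145 ± 7.32 CPM in ROSI and 132 ± 7.73 CPM in DMSO (SD, n = 4) and passed in no comparison.

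Rdh16, a retinol dehydrogenase that also acts on steroids and is best known from liver, was the member with the largest rise in ROSI against DMSO. It had 8.58, 8.68, 5.35 and 9.35 CPM in TBT libraries, 75.2, 89.3, 82.4 and 96.1 CPM in ROSI libraries and 1.90, 3.28, 24.9 and 4.74 CPM in DMSO libraries. The ROSI libraries stood above all others, and DMSO replicate 3 stood apart from the other DMSO libraries and above all TBT libraries. Rdh16 rose by 3.19 ± 0.46 in ROSI against DMSO (edgeR adjusted p = 7.6e-05) and was at -3.42 ± 0.48 in TBT against ROSI (adjusted p = 8.7e-05). Without DMSO replicate 3 the log2 fold change in ROSI against DMSO was 4.64. The comparison of TBT with DMSO turned on that library: the log2 fold change was -0.23 ± 0.51 with it (edgeR adjusted p = 0.78) and 1.20 without it (adjusted p = 0.011), with all TBT libraries then above all DMSO libraries.

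The bases from 250 to 2 before the annotated start of Rdh16 (RefSeq GRCm38.p6, plus strand, chr10:127800903-127801151) are shown because this gene separated ROSI from the other groups. Capitals mark the TATAAA box and the half-site AGGTCA on the opposite strand, written TGACCT here, which 14.0% of all windows hold.
Rdh16: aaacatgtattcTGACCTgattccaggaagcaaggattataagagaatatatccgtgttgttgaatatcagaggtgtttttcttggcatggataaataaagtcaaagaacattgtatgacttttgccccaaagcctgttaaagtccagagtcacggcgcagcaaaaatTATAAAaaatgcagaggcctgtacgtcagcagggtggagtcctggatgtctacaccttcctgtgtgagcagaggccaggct
The match lies 238 to 233 bases before the start and has no second half-site at a spacing of 1, 2 or 5 bases.

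Rdh16 sits in a row of related genes on chromosome 10, with Rdh1 and Rdh9 just before it and Rdh19 just after it. Some reads from Rdh16 cannot be placed on 1 gene by sequence alone. Of 6239 windows of 50 bases in its annotated transcripts (GENCODE M21), 13.98% occur letter for letter in another gene, among them Rdh9 and the pseudogene Rdh18-ps. How the counting program placed such reads is not given in the sources used here, so levels of single genes in this row are uncertain. Rdh1 averaged 8.86 ± 2.12 CPM in TBT, 41.5 ± 6.37 CPM in ROSI and 13.7 ± 5.76 CPM in DMSO (SD, n = 4), a log2 fold change of 1.57 ± 0.25 in ROSI against DMSO (edgeR adjusted p = 1.8e-04). Rdh9 averaged 22.3 ± 5.37 CPM in TBT, 69.6 ± 8.95 CPM in ROSI and 18.6 ± 8.74 CPM in DMSO, at 1.87 ± 0.25 in ROSI against DMSO (adjusted p = 3.4e-05). Rdh18-ps averaged 3.67 ± 1.08 CPM in TBT, 22.8 ± 2.79 CPM in ROSI and 2.63 ± 3.24 CPM in DMSO. Rdh1, Rdh9 and Rdh18-ps were all lower in TBT than in ROSI, at -2.22 ± 0.26, -1.64 ± 0.25 and -2.61 ± 0.43 on the log2 scale. Rdh19, at 1.63 ± 1.09 CPM in TBT, 2.41 ± 0.44 CPM in ROSI and 0.65 ± 0.36 CPM in DMSO, rose with ROSI by 1.78 ± 0.52 (adjusted p = 0.020). Leaving out DMSO replicate 1 (adjusted p = 0.060) or 4 (adjusted p = 0.064) ended this call.

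**Figure D2:**
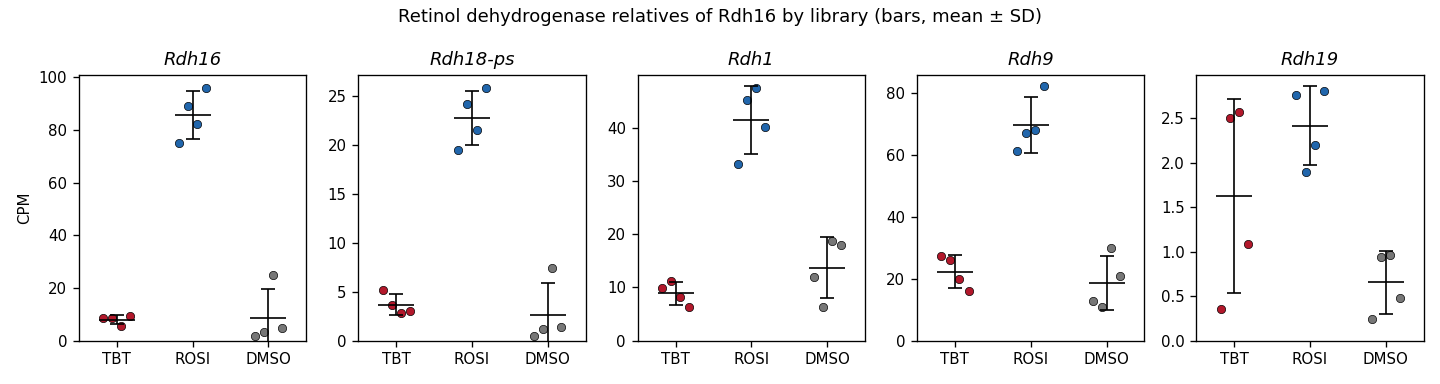
Level in CPM (vertical axes, from 0) of Rdh16 and 4 related genes in TBT, ROSI and DMSO libraries; points are libraries and bars the mean ± SD, cut at 0 where the SD is larger than the mean. ROSI libraries lie highest for Rdh16, Rdh18-ps, Rdh1 and Rdh9, and in Rdh16 and Rdh18-ps DMSO replicate 3 lies above the other DMSO libraries.

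Of the 3 retinal dehydrogenases Aldh1a1, Aldh1a2 and Aldh1a3, nearly all signal came from Aldh1a1. Aldh1a1, the retinal dehydrogenase known from fat tissue, had 2336, 2877, 2550 and 2054 CPM in TBT libraries, 628, 788, 727 and 698 CPM in ROSI libraries and 1080, 1327, 1735 and 2533 CPM in DMSO libraries. The ROSI libraries were all below the others, whereas TBT and DMSO libraries overlapped through DMSO replicate 4. Aldh1a1 fell by 1.23 on the log2 scale in ROSI against DMSO (SE 0.21, edgeR adjusted p = 3.3e-04) and was higher by 1.79 ± 0.21 in TBT against ROSI (adjusted p = 1.8e-05), a difference of 3.46-fold. In TBT against DMSO the log2 fold change of 0.56 ± 0.21 did not pass (adjusted p = 0.075). It passed without DMSO replicate 4 (0.83, adjusted p = 0.0089) and without TBT replicate 4 (0.64, adjusted p = 0.022).

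Aldh1a1 has a near copy next to it on chromosome 19, Aldh1a7. Of the 50-base windows in the annotated Aldh1a1 transcripts, 3.06% occur letter for letter in another gene, Aldh1a7. Of those of the longest Aldh1a1 transcript, 34.3% match Aldh1a7 with at most 3 mismatches. On this looser measure, 1.70% to 7.97% of windows of the longest Rdh16 transcript match Rdh1, Rdh9, Rdh19 or Rdh7. Aldh1a7 was at 161 ± 21.2 CPM in TBT, 167 ± 16.1 CPM in ROSI and 165 ± 41.1 CPM in DMSO (SD, n = 4) and passed in no comparison. The spans of E030003E18Rik and C730002L08Rik overlap that of Aldh1a1 in RefSeq. Reads from any bases they share cannot be told apart without strand, and whether their exons overlap was not looked at. These 2 genes had means of 41.4 and 8.60 CPM in TBT, 17.6 and 3.03 CPM in ROSI and 39.4 and 10.8 CPM in DMSO. Both passed in ROSI against DMSO, at -1.15 ± 0.18 and -1.81 ± 0.26 on the log2 scale, and in TBT against ROSI (edgeR adjusted p = 1.1e-04 and 7.5e-04), and their part in the Aldh1a1 counts was not tested.

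The promoter window of the downstream start of Aldh1a1 is shown because the gene differed between the ligands (RefSeq GRCm38.p6, plus strand, 250 to 8 bases before the start, chr19:20601718-20601960). Capitals mark its one half-site, GGGTCA on the opposite strand, written TGACCC here, at 49 to 44 bases before the start.
Aldh1a1: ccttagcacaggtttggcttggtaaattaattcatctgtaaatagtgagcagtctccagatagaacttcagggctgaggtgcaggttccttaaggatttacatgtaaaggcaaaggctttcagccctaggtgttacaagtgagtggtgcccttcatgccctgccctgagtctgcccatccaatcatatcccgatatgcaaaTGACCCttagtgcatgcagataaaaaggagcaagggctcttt
No direct repeat of half-sites at a spacing of 1, 2 or 5 bases was found in any of the member windows, and 0.164%, 0.174% and 0.0883% of all windows hold one.

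The other 2 retinal dehydrogenases were at the floor. Aldh1a2, the main source of retinoic acid in the embryo, had 3 reads over the TBT libraries, 2 over the ROSI libraries and 7 over the DMSO libraries, and 0 reads in 6 of the 12 libraries; in a single library a count of 0 allows up to 0.388 to 0.752 CPM, depending on its depth and for counting error only. Aldh1a3 had 2.86, 1.54, 0.642 and 1.96 CPM in TBT libraries, 1.00, 0.790, 1.16 and 2.01 CPM in ROSI libraries and 1.43, 2.11, 1.80 and 1.42 CPM in DMSO libraries. Its groups overlapped in every comparison, and the 95% interval of its log2 fold change ran from -0.81 to 0.97 in TBT against DMSO and from -1.38 to 0.48 in ROSI against DMSO. Per kilobase of annotated exon, Aldh1a1 made up 99.84% to 99.98% of the summed level of the 3 retinal dehydrogenases in every library.

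For the clearance of retinoic acid, Cyp26b1 RNA was higher in TBT than in both other groups. Cyp26b1, which hydroxylates retinoic acid and is itself a retinoic acid target, stood at 234, 292, 221 and 221 CPM in TBT libraries, at 46.1, 36.8, 38.8 and 46.3 CPM in ROSI libraries and at 20.4, 23.2, 26.7 and 25.6 CPM in DMSO libraries. The 3 groups did not overlap, with TBT highest and DMSO lowest. Cyp26b1 rose by 3.33 ± 0.15 in TBT against DMSO, or 10.0-fold, and by 0.80 ± 0.14 in ROSI against DMSO (edgeR adjusted p = 5.0e-04), or 1.74-fold. TBT libraries exceeded ROSI libraries by 2.53 ± 0.14 (adjusted p = 1.6e-08), a 5.78-fold difference with a 95% interval of 2.24 to 2.83 on the log2 scale, and this gene had the smallest p of all tested genes there. None of its 50-base windows occurs in another gene, and RefSeq has no gene that overlaps it. Its relatives were not detected at a level that could be tested: Cyp26a1 had 0 reads in all 12 libraries, and Cyp26c1 had 0 reads in TBT, 0 in ROSI and 3 in DMSO.

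The promoter of Cyp26b1 is shown because this gene's 3 groups did not overlap (RefSeq GRCm38.p6, minus strand, chr6:84593909-84594060, 250 to 99 bases before the annotated start). Capitals mark the TATAAA box, at 139 to 134 bases before the start.
Cyp26b1: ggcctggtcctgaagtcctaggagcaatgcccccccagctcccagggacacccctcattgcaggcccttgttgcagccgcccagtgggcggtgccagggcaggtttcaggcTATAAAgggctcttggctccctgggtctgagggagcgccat
These letters and the rest of the window of 250 bases hold none of the 4 half-sites on either strand, which says nothing of sites outside it.

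**Figure D3:**
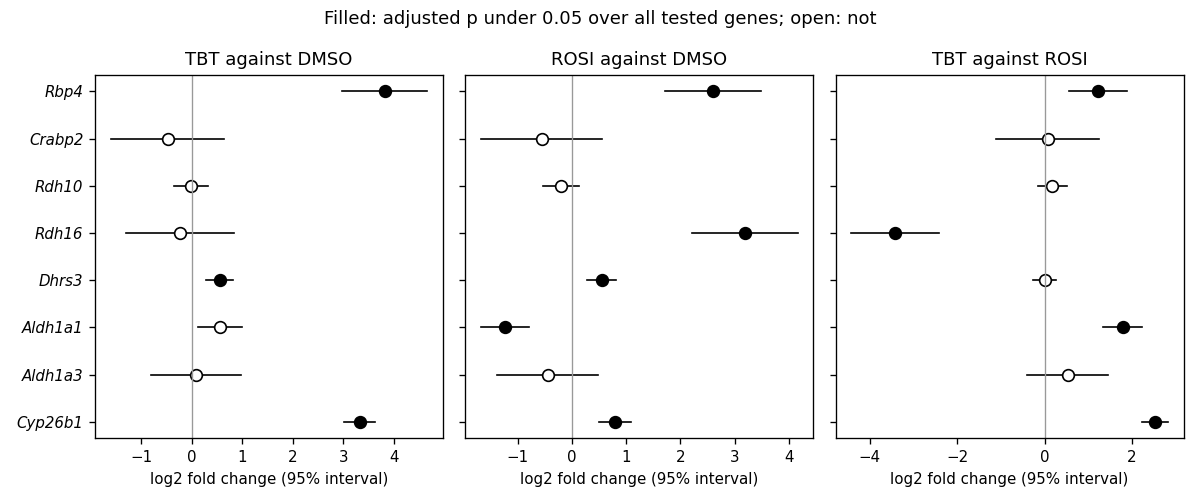
Log2 fold change (horizontal axes) of the 8 tested genes in TBT against DMSO, ROSI against DMSO and TBT against ROSI; points are edgeR estimates, lines their 95% intervals, and filled points have an adjusted p under 0.05. Cyp26b1 and Rbp4 lie right of 0 in all 3 panels, and Rdh16 lies at 3.19 in ROSI against DMSO and at -3.42 in TBT against ROSI.

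On a scale per length, which allows levels of different genes to be compared, the order of the members differed between groups. In CPM per kilobase of exon, Aldh1a1 was highest in every group, at 1025 ± 145 in TBT, 296.5 ± 27.8 in ROSI and 697 ± 266 in DMSO (SD, n = 4). Cyp26b1 came next in TBT, at 45.2 ± 6.37, with Dhrs3 at 19.2 ± 1.62, Rbp4 at 15.7 ± 2.99, Rdh10 at 8.15 ± 1.53, Rdh16 at 2.49 ± 0.56 and Crabp2 at 1.495 ± 1.16. Dhrs3 and Rbp4 differed by less than the sum of their SDs, as did Rdh16 and Crabp2. In ROSI the place after Aldh1a1 went to Rdh16, at 26.7 ± 2.80, followed by Dhrs3 at 19.1 ± 2.44, Cyp26b1 at 7.85 ± 0.92, Rdh10 at 7.16 ± 1.06, Rbp4 at 6.72 ± 2.81 and Crabp2 at 1.48 ± 1.05. Cyp26b1, Rdh10 and Rbp4 lay within 1 SD of Rbp4 of each other there. In DMSO, Dhrs3 at 13.2 ± 0.77 and Rdh10 at 8.27 ± 0.77 stood above Cyp26b1 at 4.48 ± 0.52, Rdh16 at 2.71 ± 3.38, Crabp2 at 2.13 ± 0.82 and Rbp4 at 1.07 ± 0.69, and the SD of Rdh16 covers both its neighbours. Aldh1a3 and Aldh1a2 were lowest in every group, at up to 0.39 ± 0.21 (Aldh1a3 in TBT). Exon lengths come from GENCODE M21, which is not the annotation the counts were made with.

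Around the members, 66 further symbols of the retinoid pathway were listed by role, of which 63 are in the count table and 38 were tested. In TBT against DMSO 7 rose and 3 fell, where 15.2% of all tested genes passed. In ROSI against DMSO 10 rose and 5 fell, where 22.6% of all passed. In TBT against ROSI 5 were higher and 11 lower, where 23.9% of all passed. The median log2 fold changes of the 38 were -0.051, 0.26 and -0.38. The list was written by role with earlier results of these data known, and counts of calls in all tested genes are given above. The 25 symbols not tested had 0 to 96 reads over all 12 libraries and include Stra6, the cell-surface receptor for RBP4, with 5 reads in TBT, 0 in ROSI and 19 in DMSO, and Lrat, which forms retinyl esters, with 7 in TBT, 4 in ROSI and 9 in DMSO. The others are Ttr, Rbp3, Rbp2, Rbp7, Crabp1, Rlbp1, Bcmo1, Bco2, Adh1, Adh4, Adh7, Rdh7, Rdh12, Sdr16c5, Sdr16c6, Hsd17b6, Aldh8a1, Cyp26a1, Cyp26c1, Cyp2s1, Rxrg, Hoxb1 and Stra8.

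Among binding proteins inside the cell, Fabp5, a fatty acid-binding protein that also binds retinoic acid, rose to 64.1 ± 17.9 CPM in TBT and 103 ± 15.2 CPM in ROSI, against 13.1 ± 12.1 CPM in DMSO. Its log2 fold change was 2.22 ± 0.38 in TBT against DMSO and 2.91 ± 0.38 in ROSI against DMSO, and -0.68 ± 0.34 in TBT against ROSI, which did not pass (edgeR adjusted p = 0.15). Without DMSO replicate 3 the changes against DMSO were 3.16 in TBT and 3.87 in ROSI.

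All 5 tested genes of retinyl ester formation and hydrolysis rose with ROSI against DMSO, and 1 of 5, Lpl, rose with TBT, where 10.0% of all tested genes rose with ROSI and 8.22% with TBT. These genes handle triglycerides as well as retinyl esters. Pnpla2, a lipase of lipid droplets, averaged 132 ± 39.1 CPM in TBT, 412 ± 42.7 CPM in ROSI and 104 ± 49.6 CPM in DMSO, a log2 fold change of 1.98 ± 0.25 in ROSI against DMSO. Lipe, hormone-sensitive lipase, averaged 27.1 ± 7.97 CPM in TBT, 48.4 ± 8.39 CPM in ROSI and 20.1 ± 4.22 CPM in DMSO (1.27 ± 0.20 in ROSI against DMSO). Lpl, lipoprotein lipase, rose by 1.13 ± 0.22 in TBT and by 1.70 ± 0.22 in ROSI. Dgat1, which can esterify retinol, rose by 0.52 ± 0.16 in ROSI against DMSO, a call lost when DMSO replicate 1 or 4 or ROSI replicate 1 or 2 was left out (edgeR adjusted p of up to 0.074) and with the replicate block (adjusted p = 0.059). Ces1d, a carboxylesterase, averaged 3.28 ± 0.63 CPM in TBT, 4.62 ± 2.31 CPM in ROSI and 1.54 ± 0.80 CPM in DMSO, and its call in ROSI against DMSO (adjusted p = 0.011) was lost without ROSI replicate 2 (adjusted p = 0.067). Pnpla2, Lipe and Dgat1 were lower in TBT than in ROSI, at -1.65 ± 0.25, -0.84 ± 0.20 and -0.64 ± 0.16.

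Of the carotenoid uptake and cleavage genes, Scarb1 and Cd36 were tested. Cd36, a fatty acid translocase that also takes up carotenoids, was at 585 ± 115 CPM in TBT, 1233 ± 129 CPM in ROSI and 164 ± 150 CPM in DMSO. It rose by 1.83 ± 0.38 in TBT and 2.90 ± 0.39 in ROSI against DMSO, and by 2.70 and 3.80 without DMSO replicate 3. Its difference between TBT and ROSI, -1.08 ± 0.37, had an edgeR adjusted p of 0.044 and ended without any one of 7 libraries (all ROSI replicates and TBT replicates 1 to 3, adjusted p of up to 0.12) and with the replicate block (adjusted p = 0.069).

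Among 12 further dehydrogenases and reductases tested, 2 rose and 1 fell in TBT against DMSO, where 8.22% of all tested genes rose and 7.03% fell. Rdh14, a retinol dehydrogenase of broad expression, averaged 23.8 ± 8.42 CPM in TBT, 14.4 ± 1.08 CPM in ROSI and 12.7 ± 1.11 CPM in DMSO, and differed from DMSO by 0.91 ± 0.21 and from ROSI by 0.73 ± 0.21 on the log2 scale in TBT. The call against ROSI ended without ROSI replicate 1 or TBT replicate 1 or 3 (edgeR adjusted p of up to 0.095) and with the replicate block (adjusted p = 0.052). Rdh13, a mitochondrial relative, was at 0.66 ± 0.20 in TBT against DMSO, and 5 libraries each ended that call when left out (DMSO replicates 1 to 3 and TBT replicates 2 and 3, adjusted p of up to 0.10). Akr1b8, an aldo-keto reductase, fell by 0.64 on the log2 scale in TBT against DMSO (SE 0.16), a call lost without DMSO replicate 1 (adjusted p = 0.050). Dhrs9 was lower in TBT than in ROSI by a log2 fold change of -0.64 ± 0.15.

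Cyp1b1, a cytochrome P450 that can oxidise retinol and retinal, was at 1349 ± 342 CPM in TBT, 453 ± 73.8 CPM in ROSI and 709.7 ± 98.7 CPM in DMSO. It rose by 0.93 ± 0.19 in TBT against DMSO and was higher by 1.57 ± 0.19 in TBT against ROSI. Its fall in ROSI against DMSO, -0.65 ± 0.19, did not pass without DMSO replicate 1 or 3 or ROSI replicate 1 (edgeR adjusted p of up to 0.067). Aox1, an aldehyde oxidase able to oxidise retinal, was higher in TBT than in ROSI by 0.49 ± 0.14, and this call ended without ROSI replicate 1 or 3 or TBT replicate 1 or 2 (adjusted p of up to 0.065).

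None of the 5 tested RAR and RXR genes (Rara, Rarb, Rarg, Rxra and Rxrb) passed in TBT against DMSO, where 15.2% of all tested genes passed. Rarb, a receptor gene that retinoic acid itself induces, averaged 14.0 ± 3.48 CPM in TBT, 4.06 ± 0.58 CPM in ROSI and 18.7 ± 3.86 CPM in DMSO, and fell in ROSI against DMSO by 2.17 on the log2 scale (SE 0.23, edgeR adjusted p = 3.3e-06). It was higher by 1.76 ± 0.23 in TBT against ROSI. Rxra and Rxrb were lower in TBT than in ROSI, at -0.53 ± 0.14 and -0.99 ± 0.29, without reaching the threshold against DMSO in either group. The Rxra difference ended with GC-corrected offsets (-0.29, adjusted p = 0.085), and that of Rxrb without ROSI replicate 1 or 2 or TBT replicate 1 or 2 (adjusted p of up to 0.075).

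Of 8 tested textbook targets of retinoic acid, 1 rose and 1 fell in TBT against DMSO and 2 fell in ROSI against DMSO, counts near the 15.2% and 22.6% of all tested genes that passed there. In TBT against ROSI 1 was higher and 2 lower, where 23.9% of all tested genes passed. Cd38, an NAD hydrolase induced by retinoic acid in blood cells, averaged 3.60 ± 1.16 CPM in TBT, 6.56 ± 2.19 CPM in ROSI and 14.7 ± 4.14 CPM in DMSO (log2 fold change -2.02 ± 0.29 and -1.14 ± 0.27 against DMSO). Nrip1, a nuclear receptor corepressor, averaged 125 ± 15.9 CPM in TBT, 102 ± 15.4 CPM in ROSI and 82.5 ± 9.89 CPM in DMSO and rose by 0.60 ± 0.14 in TBT against DMSO. Meis1 fell by 0.47 on the log2 scale in ROSI against DMSO (SE 0.13), a call lost with GC-corrected offsets (adjusted p = 0.074). Between TBT and ROSI, Rarres1 (-0.97 ± 0.28), Cd38 (-0.88 ± 0.31) and Meis2 (0.52 ± 0.15) passed, and each of these 3 calls ended without 1 or more single libraries: Rarres1 without ROSI replicate 2 or TBT replicate 1 (edgeR adjusted p of up to 0.072), Meis2 without ROSI replicate 1 or 2 or TBT replicate 1 or 3 (up to 0.085; 0.077 with GC-corrected offsets) and Cd38 without any one of 7 (up to 0.17). Cd38 also ended with the replicate block (adjusted p = 0.071).

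**Figure D4:**
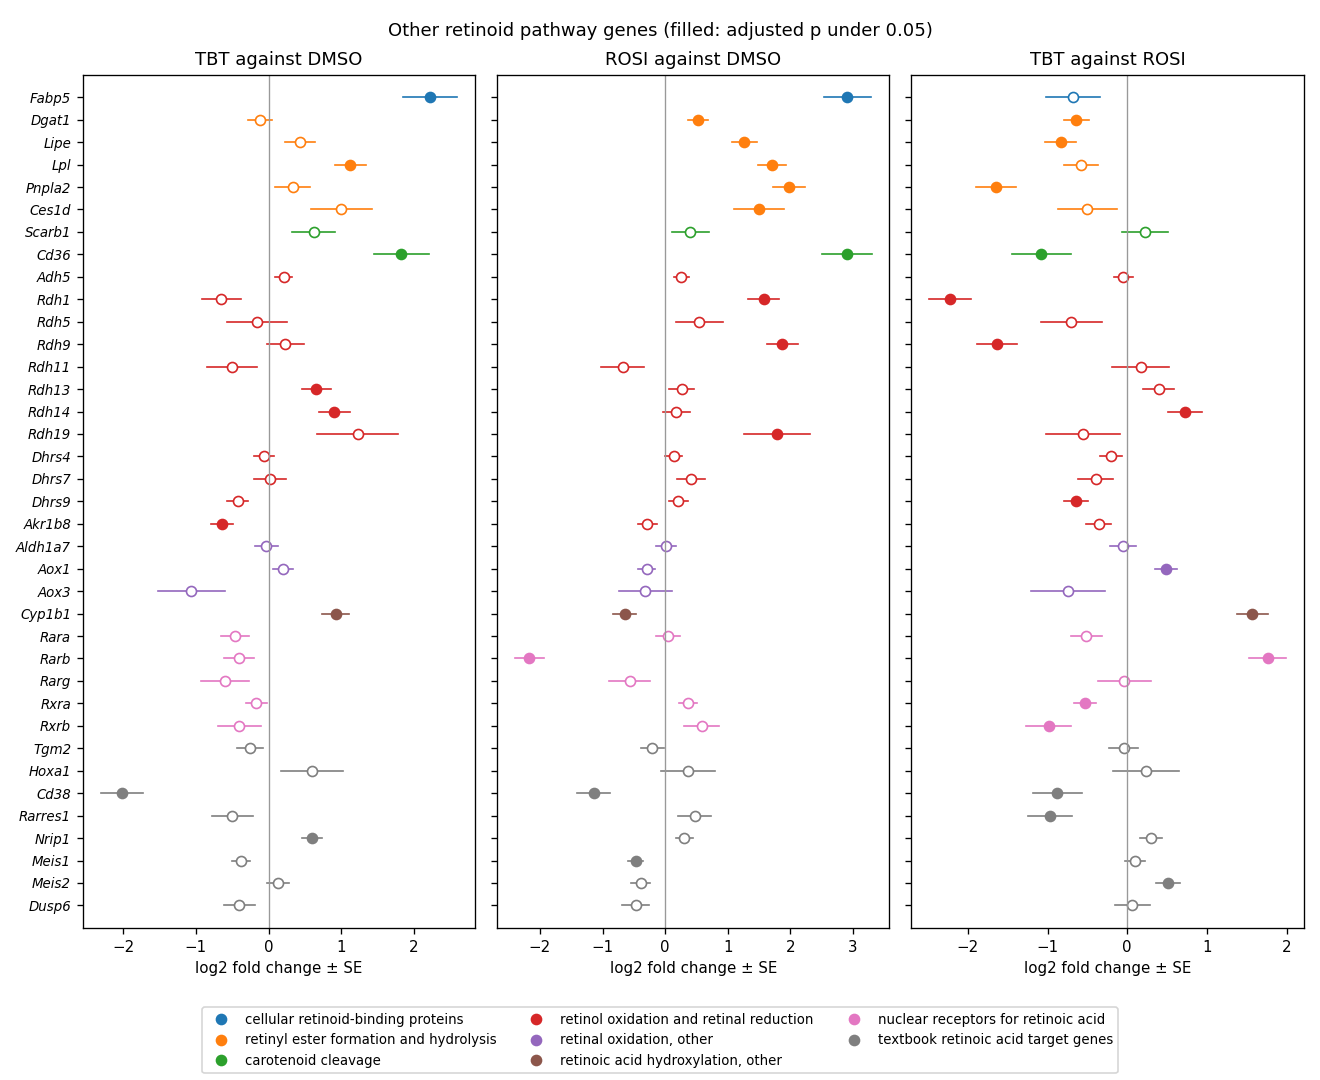
Log2 fold change ± SE (horizontal axes) of 37 tested pathway genes in TBT against DMSO, ROSI against DMSO and TBT against ROSI, coloured by role; filled points have an edgeR adjusted p under 0.05. Rarb lies at -2.17 in ROSI against DMSO and at 1.76 in TBT against ROSI, and Cd38 lies left of 0 against DMSO with both ligands.

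The genes most like each member over the 12 libraries were found by the root mean square difference of log2 CPM, each gene centred on its own mean; the libraries share their groups, so this describes likeness across treatments. For Cyp26b1, whose own profile had a root mean square of 1.42, the nearest of 12322 genes was Abca1, a cholesterol exporter, at a difference of 0.55, followed by Fhl1 at 0.63 and Aldh3b2 at 0.70. Abca1 was at 781 ± 94.2 CPM in TBT, 315 ± 49.2 CPM in ROSI and 158 ± 15.1 CPM in DMSO. For Rbp4 the nearest were Fam107a (0.46) and Angptl4 (0.56), an inhibitor of lipoprotein lipase that stood at 418 ± 66.9 CPM in TBT, 202 ± 21.6 CPM in ROSI and 49.0 ± 19.5 CPM in DMSO. For Rdh16 they were its relative Rdh18-ps (0.40), which shares sequence with it, and Sptlc3 (0.54), a subunit of serine palmitoyltransferase with 7.67 ± 1.11 CPM in TBT, 96.2 ± 5.12 CPM in ROSI and 11.2 ± 9.53 CPM in DMSO. Aldh1a1 was nearest to Sdpr (0.29), Trim25 (0.30) and Fhl2 (0.31), and Dhrs3 to Mef2a (0.12), Slc35a3 (0.15) and Rap1b (0.15). The third genes for Rbp4 and Rdh16 were 2610528A11Rik (0.76) and Acer2 (0.60). Rdh10, with Cacybp, Osbpl8 and Abhd10, Aldh1a3, with Caap1, Trim43a and D7Ertd715e, and Crabp2, with Foxm1, Sh3bp2 and Sh3d21, had flat profiles (own root mean square of 0.21, 0.46 and 0.64), so nearness means little there. The own root mean square of Dhrs3 was 0.28, so the same limit holds for its nearest genes.

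Several members are known from fat cells, and adipocyte markers differed between the groups, not all in 1 direction. The summed level of 12 adipocyte markers was 781 to 1138 CPM in TBT, 2216 to 2386 CPM in ROSI and 332 to 821 CPM in DMSO, with no marker at 0 in every library. Of the 11 markers tested, Plin1 (1.69 ± 0.31 on the log2 scale) and Fabp4 (1.65 ± 0.36) rose in TBT against DMSO, while Adipoq (-2.17 ± 0.29) and Cfd (-1.90 ± 0.31) fell. Of all tested genes, 8.22% rose and 7.03% fell there. In ROSI against DMSO 8 rose, Lipe and Pnpla2 of the pathway list among them, and Cfd fell (-0.82 ± 0.28), where 10.0% of all tested genes rose and 12.6% fell. Rdh16 was highest in the ROSI libraries, where the sum was highest. At sums of 781 to 1138 CPM the TBT libraries had 5.35 to 9.35 CPM of Rdh16, and DMSO replicate 3 had 24.9 CPM at a sum of 821 CPM. Since markers moved in opposite directions in TBT, like sums need not mean like adipocyte content. Rbp4 and Cyp26b1 were highest in TBT, where the sum was lower than in ROSI. In bulk RNA, more cells of a type and more RNA per cell cannot be told apart, and the part of adipocyte number in these levels was not tested. The 10 stromal markers summed to 3471 to 4454 CPM in TBT, 2297 to 2432 CPM in ROSI and 4192 to 5105 CPM in DMSO, while Eng, one of them, had 21 reads in all. Hepatocyte markers were looked at because Rdh16 and Rbp4 are abundant in liver: of 12, 9 were too low to test, Fgg had 0 reads, Apoc3 (1.21 ± 0.38) and Fga (1.95 ± 0.49) rose in ROSI against DMSO, and Cyp2e1, which fat tissue also expresses, made most of a sum of 75.7 to 163 CPM in TBT, 126 to 243 CPM in ROSI and 41.4 to 58.4 CPM in DMSO. Cyp2e1 itself rose by 1.87 ± 0.25 in ROSI and by 1.52 ± 0.25 in TBT against DMSO. Apoc3 and Fga did not pass in TBT against DMSO.

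**Figure D5:**
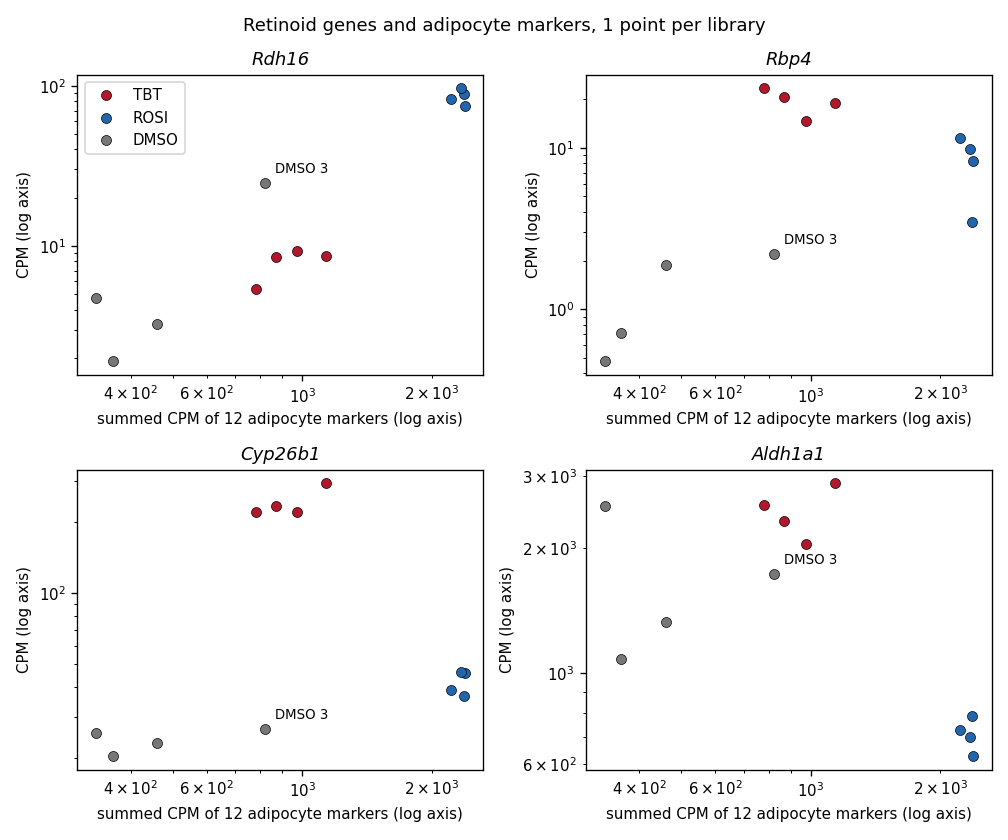
Level of Rdh16, Rbp4, Cyp26b1 and Aldh1a1 in CPM (vertical, log axis) against the summed CPM of 12 adipocyte markers (horizontal, log axis), 1 point per TBT, ROSI or DMSO library. ROSI libraries lie at 2216 to 2386 CPM of markers, and DMSO replicate 3, at 821 CPM, is the DMSO library with the most markers and the most Rdh16.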

How the data were processed

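Per the labels, RNA was cleared of ribosomal RNA, and libraries without strand information were sequenced on a SOLiD instrument (50 nt, single end). The authors deposited raw counts per gene symbol and regularized-log values on a log2 scale; build mm9, FastQC, SAMtools and DESeq2 are named in the submitters' processing notes without versions. The aligner, the counter and the gene models: not given in the sources used here. Columns were matched to libraries by title.

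Counts were tested in R 4.3.3 with edgeR 4.0.16 (filterByExpr with 3 groups, which needs about 1.92 CPM in at least 4 libraries; TMM; 1 quasi-likelihood fit of 12 libraries; Benjamini-Hochberg over 12323 genes; threshold 0.05). The SE is the log2 fold change over the root of F. Copies of a library were looked for by chi-square over genes; the lowest of 18 within-group pairs had 4.66 times its degrees of freedom. Alternatives used DESeq2 1.42.0 and limma 3.58.1. The scripts were tested on simulated data.

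Named genes are the 9 members, every called gene of the pathway list (1 gene of the list is not reported here, though it is in the counts), the nearest 3 genes by profile, and Rn45s. Abca1, Angptl4 and Sptlc3 levels illustrate these; Rdh18-ps, Vps13d, E030003E18Rik, C730002L08Rik, Aldh1a7 and uncalled genes named were picked for shared sequence, overlap or role. Members and lists were chosen with earlier results of these data known. Promoters and overlaps come from RefSeq GRCm38.p6, a later build than mm9; 6 of 9 members had a promoter entry. Exon lengths, GC and shared windows come from GENCODE M21, in which 98.4% of symbols were matched. Replicate numbers were not used to pair the libraries in the main fit.
The 95% intervals of log2 fold changes include the spread between libraries, and floors (3 counts) cover counting error only.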

Additional observations from a re-analysis of the deposited data

Results flagged for a closer look

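In 27 sets of 4 libraries (9 genes in 3 groups), the gap of the highest or lowest library to its neighbour was set against the range of the group (Dixon's test at 95%); chance flags about 1 set in 20. Rdh16 in DMSO stood out through replicate 3, at 24.9 CPM against 1.90 to 4.74 CPM in the other DMSO libraries. Crabp2 in TBT stood out through replicate 3, at 2.99 CPM against 0.715 to 1.09 CPM in the other TBT libraries, which is 14 reads against 4 to 5.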

How the results depend on the processing

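Each result was recomputed with other normalizations, tools, filters, designs and thresholds, in 12 fits without 1 library and under settings added after seeing the data (GC-corrected offsets, and DMSO replicate 3 and TBT replicate 4 both left out). Cyp26b1, Rbp4 and Dhrs3 against DMSO with either ligand, Rdh16 and Aldh1a1 in ROSI against DMSO, and Cyp26b1, Aldh1a1, Rdh16 and Rbp4 in TBT against ROSI kept direction and call throughout, except that at an adjusted p under 0.01 Dhrs3 in TBT against DMSO and Rbp4 in TBT against ROSI did not pass. Aldh1a1 in TBT against DMSO, not called, passed with no filter (adjusted p = 0.025), with limma on regularized-log values (0.044) and with both libraries left out (0.037).

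The number of genes called in TBT against DMSO (1879) was 1160 with the replicate block, 1199 with only the 2 groups, 574 at 0.01 and 3741 with both libraries left out, and 1019 to 4124 without single libraries (4124 without TBT replicate 4, and 1019 to 1138 without DMSO replicate 1 or 2 or TBT replicate 1, 2 or 3). In ROSI against DMSO (2787) it was 1713 at 0.01. In TBT against ROSI (2940) it was 1355 at 0.01, 4650 with both left out and 1732 to 4826 without single libraries (4826 without TBT replicate 4, and 1732 to 1919 without ROSI replicate 1 or 2 or TBT replicate 1 or 3). Members called in TBT against DMSO (3) were 2 at 0.01, 4 with limma on regularized-log values, 5 with both left out and 3 to 4 without single libraries. Pathway genes called in TBT against DMSO (10) were 5 at 0.01 and 18 with both left out; in TBT against ROSI (16) they were 8 at 0.01 and 10 to 19 without single libraries.

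Signs turned only in comparisons not called with all libraries. Dhrs3 in TBT against ROSI was at -0.0070 with DESeq2 size factors, -0.037 with upper-quartile factors, -0.0093 with DESeq2, -0.016 with no filter, -0.0078 at a mean of at least 5 CPM, -0.018 with only the 2 groups, -0.064 with both left out and -0.051 to 0.073 without single libraries. Rdh16 in TBT against DMSO was at 0.10 with the replicate block, 0.15 with limma, 1.12 with both left out and -0.52 to 1.20 without single libraries, the highest without DMSO replicate 3. Without single libraries, Rdh10 in TBT against DMSO ran from -0.10 to 0.10, Aldh1a3 from -0.0018 to 0.33 and Crabp2 in TBT against ROSI from -0.62 to 0.53. The causes were not tested.

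In most pairs, same-numbered libraries did not deviate together (r of -0.43 to 0.14 across genes). Above 0.1 were replicate 4 of ROSI and DMSO (0.11) and replicate 3 of TBT and ROSI (0.14). Among the DMSO libraries, replicate 4 was the most like ROSI replicate 4. The labels do not say that the numbers mark a shared culture or day, and this check cannot exclude it. No member call changed with the replicate block. Genes dropped by a filter have no value under it. Reads limit Aldh1a2, Aldh1a3, Crabp2 and, in DMSO, Rbp4.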
